A study of Mus musculus with 12 samples.

Results

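The genes described here encode receptors for acetylcholine, opioid peptides and endocannabinoids: the muscarinic receptors Chrm1, Chrm2, Chrm3 and Chrm4, the opioid receptors Oprd1, Oprk1, Oprm1 and Oprl1, and the cannabinoid receptor Cnr1. They were found by their gene names, and all 9 were present once in each deposited table of 23951 rows. RNA was sequenced from cortex of C57BL/6 mice of 3 genotypes at Mir137, with 4 libraries each: knockout (KO, labelled miR-137 KO), heterozygous (Het, labelled miR-137/+) and wild type (WT). The age and sex of the mice, and how the Mir137 allele was made, are not stated in what was used here. The libraries of each genotype are numbered 1-1, 1-2, 2-1 and 2-2 in their titles, and the protocol speaks of duplicated samples. Whether they stand for 4 animals or for 2 sampled more than once is not stated, so p-values measure only the spread between libraries, which may be technical. The study addresses the part of miR-137 in brain development.

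All of these receptors are G protein-coupled. Chrm1 and Chrm3 encode the M1 and M3 receptors, which act through Gq and phospholipase C to excite neurons and close M-current potassium channels. Chrm2 and Chrm4 encode the M2 and M4 receptors, which, like the opioid and cannabinoid receptors, act through Gi and Go to lower cyclic AMP, open GIRK potassium channels and damp transmitter release. In cortex M1 is the main muscarinic receptor of pyramidal neurons, while M4 is best known from striatal projection neurons, and Cnr1 sits on the terminals of cholecystokinin interneurons and of glutamatergic neurons.

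The microRNA that the mice lack, or carry in reduced dose, recognises messages through its seed (bases 2 to 8, in capitals), so its sequence is given with each seed match found in a 3′ UTR of these receptors. The sequence is RefSeq's, on the plus strand at chr3:118433901-118433923 of GRCm38.p6, and capitals in the sites mark the matched letters.
mmu-miR-137-3p: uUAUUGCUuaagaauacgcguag
Chrm2 site: tttctcctcatAGCAATAAtgtaaatatcc
Chrm3 site: atgtcacatacAGCAATAgatctacattt
The matches searched for on the message strand were AGCAATA (opposite bases 2 to 8), GCAATAA (opposite bases 2 to 7, followed by A) and their overlap AGCAATAA, counted once. Chrm2 held an AGCAATAA at base 3148 of a 3′ UTR of 3804 nt, shown with its flanks at chr6:36527747-36527776 of GRCm38 on the plus strand. Chrm3 held an AGCAATA at base 1113 of a 3′ UTR of 1743 nt, at chr13:9876099-9876127 on the minus strand. Over the 12828 tested genes with an annotated 3′ UTR, 16.0% held at least 1 of these matches and 4.63% held AGCAATAA. Among genes whose 3′ UTR was within 20% of the same length, the share with a match was 31.7% for Chrm2 and 18.0% for Chrm3.

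No match was found in the longest annotated 3′ UTR of Chrm1 (4272 nt), Cnr1 (3796 nt), Oprk1 (3347 nt), Oprd1 (2801 nt), Oprl1 (1648 nt) or Oprm1 (1037 nt). The annotation models Chrm4 as a coding stretch of 1440 nt with no 3′ UTR, so Chrm4 could not be searched.

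Expression is given as the authors' RPKM (reads scaled to transcript length and library size), 1 pooled value per genotype, so no SD can be attached and library depth is unknown. Rose and fell are used of genes with an adjusted p (q) under 0.05, as the authors' deposited table gives it. Log2 differences are of log2(RPKM + 1), which understates changes of low genes. The value of a genotype differs slightly between tables, by 0.645% to 0.688% for Het in these genes and by less for KO and WT. Mir137 itself had a level of 0 in every genotype and table, so it checks none of the labels.

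In WT cortex Cnr1 was the most abundant of the receptors at 52.9 RPKM, followed by Chrm1 at 34.4, Oprl1 at 18.4 and Chrm3 at 17.1 RPKM. Chrm4 stood at 4.43 RPKM, Oprd1 at 1.71, Chrm2 at 1.44, Oprk1 at 0.451 and Oprm1 at 0.131 RPKM. RPKM is scaled by length, so these levels can be set beside each other, but which neighbours in the order differ beyond replicate spread cannot be told from pooled values. Cnr1 and Chrm1 were the 2 highest and Oprm1 the lowest in all 3 genotypes. The places of Chrm2 and Oprk1 were exchanged in KO and Het, where Oprk1 stood above Chrm2. In Het, Chrm3 stood above Oprl1, the reverse of KO and WT.

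**Figure D1:**
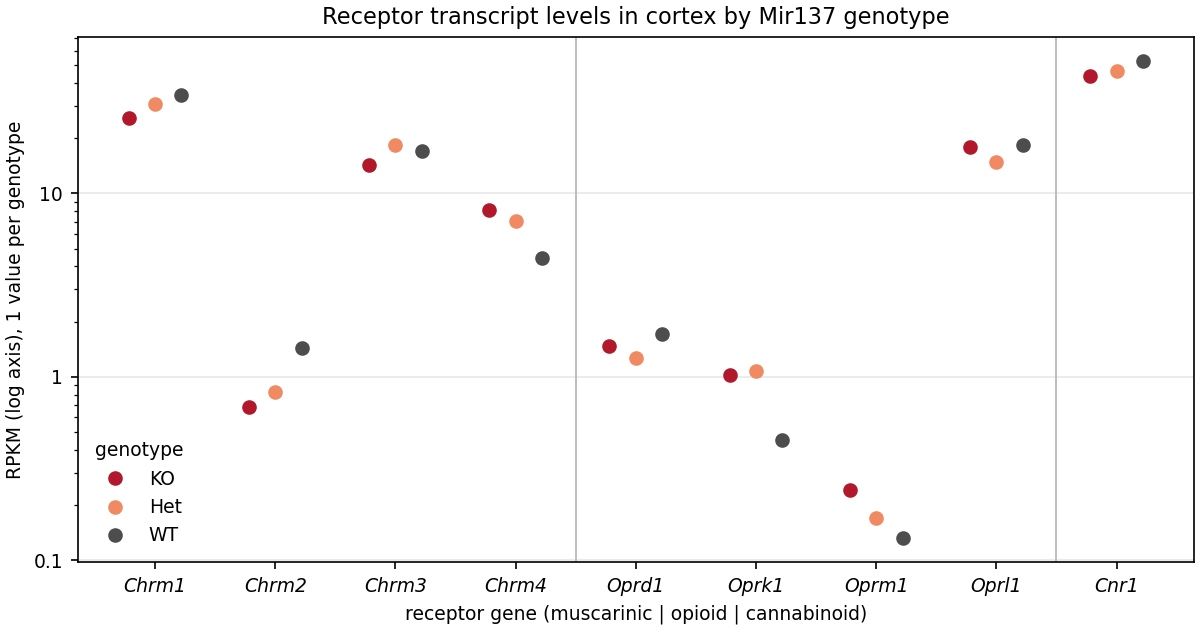
RPKM of each receptor gene on a log axis, with 1 point per genotype (KO, Het and WT from left to right for each gene) and no error because the libraries are pooled. Levels span from 0.131 RPKM for Oprm1 to 52.9 RPKM for Cnr1, both in WT. Chrm4 and Oprk1 lie higher in KO and Het than in WT, and Chrm1 and Chrm2 lie lower.

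Knockout cortex showed changes in both directions. Chrm4 and Oprk1 rose and Chrm1 and Chrm2 fell, so 4 of the 8 members tested were called, in a table where 14.4% of 14059 tested genes were called (6.72% higher and 7.68% lower). With q below 0.01, 1 rose and 1 fell, where 8.12% of tested genes were called (3.54% higher and 4.58% lower). With q below 0.05 and an absolute log2 difference of at least 0.5, 1 rose (Chrm4) and 1 fell (Chrm2), beside 2.95% higher and 3.56% lower of all tested genes. At an unadjusted p below 0.05 in the authors' deposited table there were 6 of the 8, beside 26.5% of all tested genes. Heterozygous cortex showed 1 call of 8, a rise of Oprk1, where 9% of 14159 tested genes were called (3.95% higher and 5.06% lower). At an unadjusted p below 0.05 the authors' deposited table held 4 of the 8, beside 19.5% of all tested genes. The median log2 difference over all 9 members was -0.14 in KO and -0.15 in Het, beside 0.01 over all tested genes in each table. In bulk tissue, fewer cells that carry a receptor and less of its RNA per cell cannot be told apart.

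Among the Gq-coupled muscarinic receptors, Chrm1 stood at 25.7 RPKM in KO and 30.8 in Het, against 34.4 in WT. The KO value was the lowest and the Het value lay between the other two. Chrm1 fell in KO by 0.41 on the log2 scale, 1.34-fold lower in RPKM (q 0.00831 by the authors' deposited table). In Het its log2 difference was -0.15 (q 0.494 by the authors' deposited table). Chrm3, the M3 receptor gene, stood at 14.2 RPKM in KO and 18.3 in Het, against 17.1 in WT. Its KO value was the lowest, and its Het value lay above WT. Neither difference passed the test (q 0.167 for KO and 0.776 for Het by the authors' deposited tables).

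Among the Gi-coupled muscarinic receptors, Chrm4 stood at 8.13 RPKM in KO and 7.02 in Het, against 4.43 RPKM in WT. Both mutant genotypes lay above WT, KO the higher. Chrm4 rose 1.84-fold in KO, a log2 difference of 0.75 (q 0.0103 by the authors' deposited table). In Het the ratio was 1.59 and the log2 difference 0.56 (q 0.156 by the authors' deposited table). Chrm2, the gene of the M2 receptor that often serves as an autoreceptor on cholinergic terminals, stood at 0.683 RPKM in KO and 0.825 in Het, against 1.44 in WT. It fell in KO, 2.11-fold lower, by 0.54 on the log2 scale (q 0.0325 by the authors' deposited table). The ratio of WT to Het was 1.75 (q 0.186 by the authors' deposited table). The Gi-coupled muscarinic genes thus lay on opposite sides of WT in both mutant genotypes. Chrm2 is the gene with the AGCAATAA shown above, and Chrm4 had no 3′ UTR to search. Chrm3, the other member with a match, was not called in KO or in Het. Whether either match bears on the level of its gene was not tested.

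Summed over the 4 muscarinic members, the level was 48.7 RPKM in KO and 56.9 in Het, against 57.4 RPKM in WT. The Gi-coupled pair, which is mostly Chrm4, made up 18.1% of that sum in KO and 13.8% in Het, against 10.2% in WT. Chrm1 alone made up 52.7% in KO and 54.1% in Het, against 60.0% in WT. These shares carry no test. The remaining muscarinic gene, Chrm5, whose M5 receptor is best known from midbrain dopamine neurons, was not among the 9. It stood at 2.42 RPKM in KO and 1.81 in Het, against 4.03 in WT, and fell in both (q 0.0134 for KO and 0.00244 for Het by the authors' deposited tables).

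**Figure D2:**
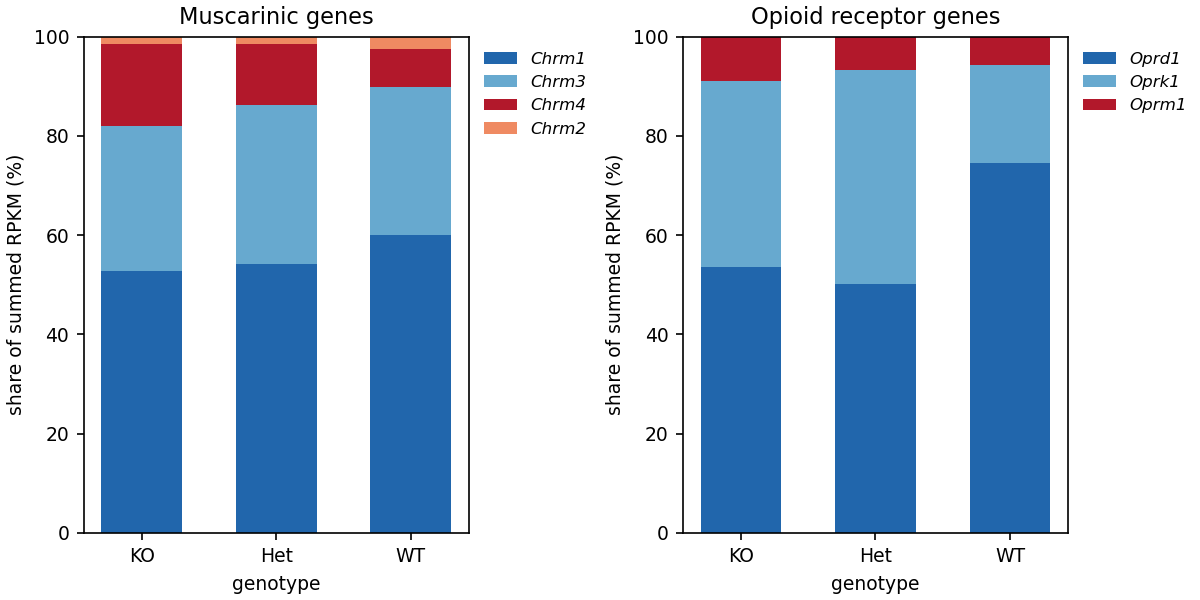
Stacked bars of each gene's share (%) of the summed RPKM in KO, Het and WT cortex, for the 4 muscarinic members (left) and for Oprd1, Oprk1 and Oprm1 (right). The share of Chrm4 is 16.7% in KO and 12.3% in Het, against 7.72% in WT, and that of Oprk1 is 37.6% in KO and 43.1% in Het, against 19.7% in WT.

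Among the opioid receptors, Oprk1 was the only member that rose in both mutant genotypes. Oprk1 encodes the kappa receptor, whose ligands are the dynorphins. It stood at 1.03 RPKM in KO and 1.08 in Het, against 0.451 RPKM in WT, so both mutant values lay above WT, with a q of 0.988 between KO and Het in the authors' deposited table. The ratio to WT was 2.27 in KO (log2 difference 0.48, adjusted p 0.000987 in the authors' deposited table). In Het the ratio was 2.40 (log2 difference 0.52, q 0.00602 by the authors' deposited table). No q in the KO against WT table is smaller than that of Oprk1, which many genes share. These levels are near or below 1 RPKM, and the number of reads behind them is unknown.

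Oprd1 and Oprl1 did not pass the test in any comparison, and Oprm1 was not tested. Oprd1, the delta receptor gene, stood at 1.46 RPKM in KO and 1.26 in Het, against 1.71 in WT (q 0.544 for KO and 0.289 for Het by the authors' deposited tables). Oprl1 encodes the nociceptin receptor, and stood at 18.0 RPKM in KO and 14.9 in Het, against 18.4 in WT. Its Het value was the lowest of the 3 (q 0.108 for Het and 0.919 for KO by the authors' deposited tables). Oprm1, the mu receptor gene, was listed at 0.242 RPKM in KO and 0.169 in Het, against 0.131 in WT. A p of 1 in each of the authors' deposited tables marks Oprm1 as not tested. In the annotation Oprm1 overlaps Ipcef1 and Gm10945 on the other strand, Chrm1 overlaps Gm22820, Chrm2 overlaps 9330158H04Rik, and Chrm3 overlaps Gm26861 and Gm47406. On the same strand Chrm2 overlaps Mir490, and Chrm3 overlaps Gm47411, Gm47405, 9330159N22Rik and Gm47404. Whether counting used strand is not stated, so reads of partners on either strand cannot be told apart.

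Of the opioid members' summed RPKM, Oprl1 made up 86.8% in KO and 85.6% in Het, against 88.9% in WT. Without Oprl1, the summed level of the delta, kappa and mu receptor genes was 2.73 RPKM in KO and 2.51 in Het, against 2.29 in WT. Oprd1 made up 53.6% of it in KO and 50.2% in Het, against 74.6% in WT.

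Cnr1 encodes CB1, the cannabinoid receptor of presynaptic terminals. It stood at 43.8 RPKM in KO and 46.7 in Het, against 52.9 RPKM in WT. The KO value was the lowest, 1.21-fold lower than WT, and neither difference passed the test (q 0.129 for KO and 0.425 for Het by the authors' deposited tables).

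Set directly against Het, KO cortex held no call among the 8 members tested, where 1.87% of 14062 tested genes were called (0.917% higher and 0.953% lower). Those with an unadjusted p below 0.05 in the authors' deposited table were 3 of the 8, beside 9.81% of all tested genes. These were Chrm3 (14.3 RPKM in KO against 18.4 in Het, p = 0.0077 and q 0.194 by the authors' deposited table), Chrm1 (adjusted p 0.460) and Oprl1 (adjusted p 0.504). Chrm4, called in KO and not in Het when each was set against WT, had an adjusted p of 0.951 between KO and Het in the authors' deposited table, which gave Chrm2 an adjusted p of 0.944. A difference between KO and Het was therefore not shown for either gene.

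**Figure D3:**
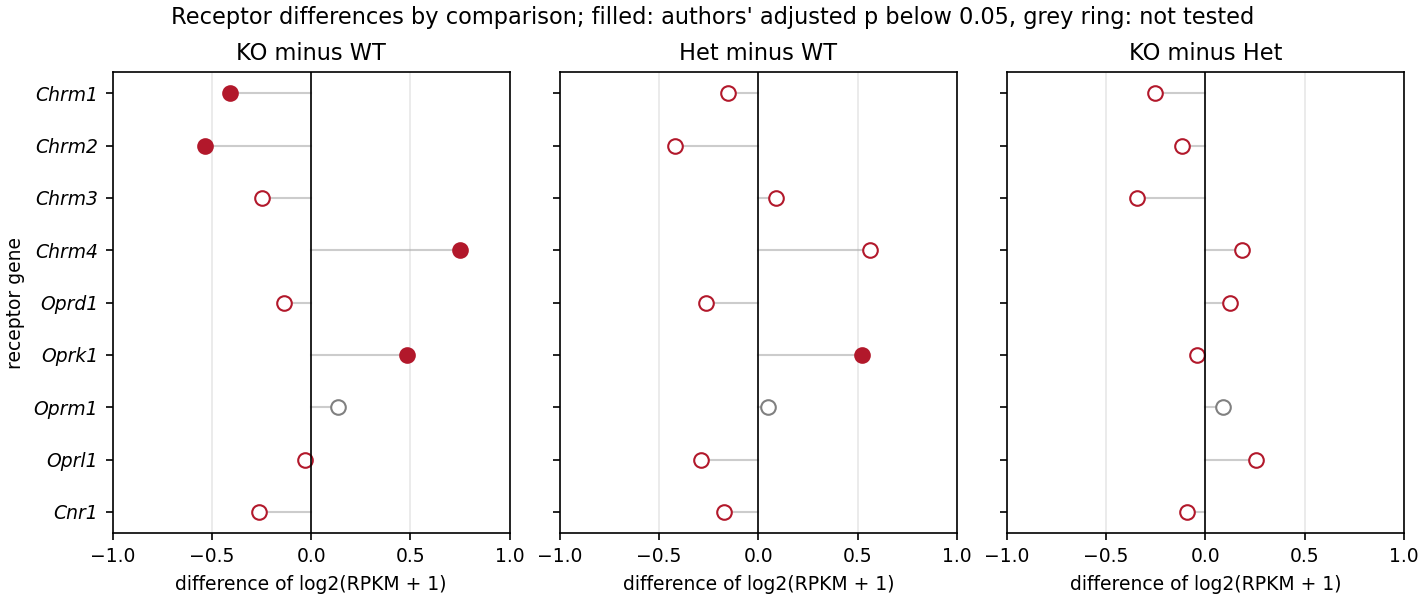
Difference of log2(RPKM + 1) for each receptor gene in KO minus WT, Het minus WT and KO minus Het. Filled points have an adjusted p below 0.05 in the authors' deposited table and grey rings were not tested. Filled points are Chrm1, Chrm2, Chrm4 and Oprk1 in KO minus WT and Oprk1 in Het minus WT.

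Cell type markers also differed between the genotypes. List counts here and below stand beside 14.4% of all tested genes called in KO and 9% in Het. Of 16 striatal projection neuron markers found, all rose in KO and in Het, with a summed level over the list of 647 RPKM in KO and 594 in Het, against 149.6 in WT, and none was at 0. The dopamine receptor gene Drd1a, which marks direct-pathway neurons, stood at 7.87 RPKM in KO and 7.96 in Het, against 0.755 in WT. Adora2a, which marks indirect-pathway neurons, stood at 26.4 RPKM in KO and 22.2 in Het, against 1.17 in WT. The rises were thus not limited to direct-pathway markers. Choroid plexus markers fell in 7 of 8 members in both genotypes. Their sum was 87.9 RPKM in KO and 290.3 in Het, against 2073 in WT, most of it from Ttr, the transthyretin gene (83.6 RPKM in KO and 281 in Het, against 2028 in WT). Of 11 cortical excitatory markers, 3 rose and 1 fell in KO and 4 rose and 1 fell in Het, with sums of 622 RPKM in KO and 724 in Het, against 795 in WT. The vesicular glutamate transporter gene Slc17a7, the defining marker of these neurons, fell in KO to 393 RPKM, against 575 in WT (q 0.000987 by the authors' deposited table). In Het it stood at 484 RPKM and was not called. The part of these cell types in the rises of Chrm4 and Oprk1 and the falls of Chrm1 and Chrm2 was not tested.

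Markers of other cell types and regions also moved. Of 12 cortical interneuron markers 2 rose and 2 fell in each mutant genotype, with sums of 1091 RPKM in KO and 1040 in Het, against 1095 in WT. The cholecystokinin gene Cck, a member of the interneuron list, stood at 368 RPKM in KO and 381 in Het, against 386 in WT. In bulk tissue the level of Cck cannot be assigned to a cell type, so it does not track the interneurons that carry Cnr1. Thalamic markers fell in 5 of 7 measured members in each, with sums of 110.0 RPKM in KO and 109.8 in Het, against 145.1 in WT. Most of each sum came from Calb2, at 71.0 RPKM in KO and 65.3 in Het, against 90.8 in WT. Of 8 hippocampal markers 2 fell in KO, and 2 rose and 2 fell in Het, with sums of 104.3 RPKM in KO and 114.8 in Het, against 140.7 in WT. Septal and basal forebrain markers fell in 3 of 4 measured members in KO and 2 of 4 in Het, with sums of 22.01 RPKM in KO and 22.3 in Het, against 33.6 in WT. The fifth septal marker, Lhx8, lay below 1 RPKM, at 0.332 in KO and 0.847 in Het, against 0.0205 in WT, and was not called. Zic1 counts in both the thalamic and the septal list, and Calb2 in both the interneuron and the thalamic list, and each fell in KO and in Het. None of these markers was at 0. The part of these regions in the receptor differences was not tested either.

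On the ligand side, 2 of 4 opioid peptide precursor genes rose in both mutant genotypes. Penk, the enkephalin precursor, stood at 103 RPKM in KO and 113 in Het, against 10.1 in WT, 10.2-fold higher in KO and 11.2-fold higher in Het. Pdyn, the precursor of the dynorphins that act on the kappa receptor, stood at 11.5 RPKM in KO and 14.3 in Het, against 4.66 in WT, 2.48-fold higher in KO and 3.07-fold higher in Het. Both genes had the smallest adjusted p of the authors' deposited tables, 0.000987 in KO and 0.00135 in Het. Pnoc, the nociceptin precursor, stood at 6.01 RPKM in KO and 5.83 in Het, against 6.22 in WT, and did not pass the test. Pomc, the source of β-endorphin, stood at 1.44 RPKM in KO and 1.27 in Het, against 0.967 in WT, and did not pass either. Pdyn and Oprk1, ligand and receptor of the kappa system, both rose in KO and in Het, Oprk1 at levels near or below 1 RPKM. The delta receptor gene Oprd1 was not called where Penk rose. All 16 striatal projection neuron markers found also rose in both mutant genotypes. The part of those neurons in the rises of Penk, Pdyn and Oprk1 was not tested.

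**Figure D4:**
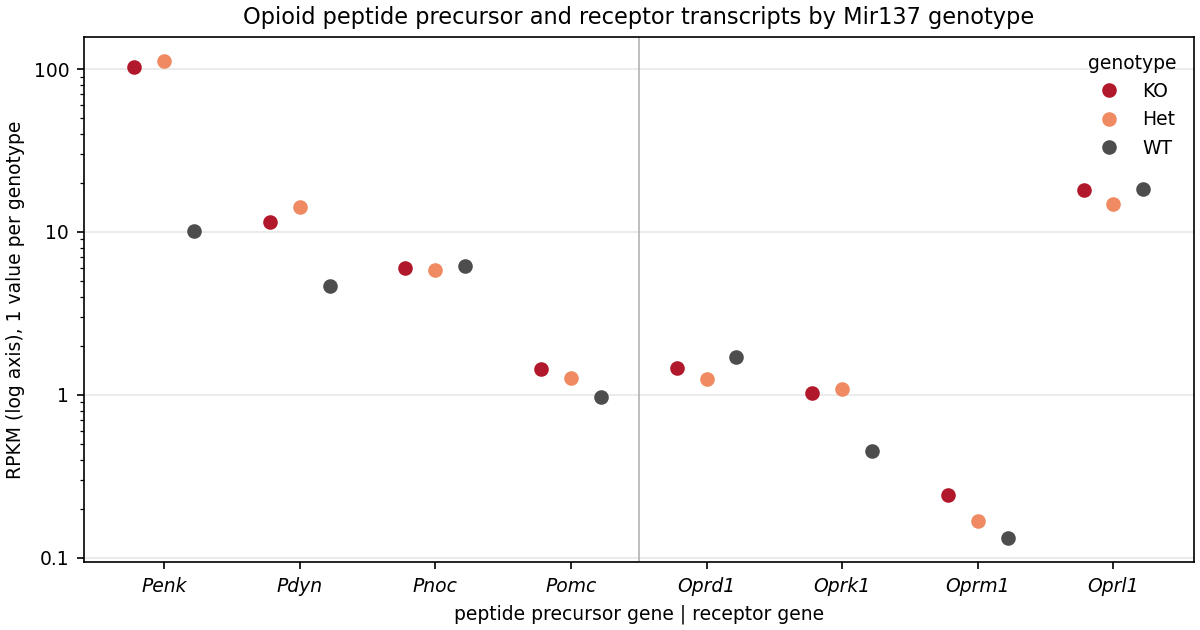
RPKM on a log axis of the 4 opioid peptide precursor genes (left) and the 4 opioid receptor genes (right) in KO, Het and WT cortex, with 1 pooled value per genotype. Penk (103, 113 and 10.1 RPKM in KO, Het and WT) and Pdyn show the widest gaps to WT, and Pnoc and Oprl1 lie close together in all 3 genotypes.

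Of 9 measured genes of opioid peptide processing, mostly of enzymes that make and trim these peptides, 1 rose and 1 fell in each mutant genotype. Over all tested genes 14.4% were called in KO and 9% in Het. Mme, the neprilysin gene whose product cleaves enkephalins, stood at 3.30 RPKM in KO and 3.27 in Het, against 1.72 in WT (q 0.000987 for KO and 0.00135 for Het by the authors' deposited tables). The prohormone convertase gene Pcsk1 fell to 6.72 RPKM in KO and 6.82 in Het, against 9.35 in WT (q 0.0210 for KO and 0.0388 for Het by the authors' deposited tables). The median log2 difference of this list was -0.04 in KO and -0.03 in Het.

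Genes of acetylcholine supply were low in WT cortex. Chat, which makes acetylcholine, was listed at 0.337 RPKM in KO and 0.847 in Het, against 0.0282 in WT, and was not tested in KO. The choline transporter gene Slc5a7 rose in Het, at 1.08 RPKM against 0.280 in WT (q 0.00135 by the authors' deposited table). It was lower in KO than in Het, at 0.486 against 1.09 RPKM (q 0.00517 by the authors' deposited table). Ache, which breaks acetylcholine down, stood at 31.8 RPKM in KO and 31.2 in Het, against 35.8 in WT, and did not pass the test. Bche, the second cholinesterase gene, rose in KO to 2.28 RPKM, against 1.62 in WT (q 0.0383 by the authors' deposited table). Measured members of this list numbered 3 in KO, where 1 was called, and 4 in Het, where 1 was called. Of 8 cholinergic neuron markers, which include genes of this list, none was at 0. Of those measured at 1 RPKM or more, 1 of 2 rose and 1 fell in KO, and 2 of 3 rose and 1 fell in Het. The 8 summed to 4.95 RPKM in KO and 7.14 in Het, against 2.75 in WT.

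Of 12 genes listed for endocannabinoid metabolism, mostly but not all of enzymes, 4 fell in KO and 2 in Het and none rose. Over all tested genes 7.68% fell in KO and 5.06% in Het. The median log2 difference of the list was -0.16 in KO and -0.05 in Het. Dagla, the main neuronal enzyme for 2-arachidonoylglycerol, stood at 26.7 RPKM in KO and 37.9 in Het, against 38.1 in WT. It fell in KO (q 0.000987 by the authors' deposited table) and was also lower in KO than in Het (q 0.00879 by the authors' deposited table). Napepld, an anandamide-forming enzyme, fell to 2.28 RPKM in KO, against 4.52 in WT (q 0.000987 by the authors' deposited table). In Het it stood at 3.48 RPKM (q 0.171 by the authors' deposited table). Naaa and Ptgs2, which degrade or oxidise these lipids, fell in both, Ptgs2 to 1.74 RPKM in KO and 3.18 in Het, against 6.75 in WT. The degrading enzymes Mgll and Faah were not called: Mgll stood at 65.7 RPKM in KO and 67.9 in Het, against 58.8 in WT, and Faah at 31.2 in KO and 32.9 in Het, against 36.4.

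Counts for genes of the G proteins and of phospholipase C stand beside 14.4% of all tested genes called in KO and 9% in Het. None of 5 Gi, Go and Gz alpha subunit genes passed the test in the authors' deposited tables in either mutant genotype, and their medians were 0.09 in KO and 0.10 in Het. At an unadjusted p below 0.05 the authors' deposited tables held none of the 5 in KO and 1 in Het, Gnai1. Of 5 measured genes of Gq, G11 and phospholipase C, 1 fell in KO and none in Het. It was Plcb4, at 4.39 RPKM in KO against 6.17 in WT (q 0.0162 by the authors' deposited table). Among 12 beta and gamma subunit genes 1 rose in both, Gng7, which is abundant in striatum. It stood at 155 RPKM in KO and 139 in Het, against 79.1 in WT. Gnb1, Gnb2, Gng11 and Gng13, higher, and Gng4, lower, also had an unadjusted p below 0.05 in KO in the authors' deposited table. In Het these were Gnb2, Gnb4, Gnb5 and Gng11, all higher. That cut took 26.5% of all tested genes in KO and 19.5% in Het. The medians of this list were 0.18 in KO and 0.16 in Het.

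Of 6 measured genes of the GIRK and M-current potassium channels, which these receptors gate, 4 fell in KO and 2 in Het, and none rose. Beside them, 7.68% of all tested genes fell in KO and 5.06% in Het. The medians of the list were -0.38 in KO and -0.33 in Het. The GIRK subunit gene Kcnj6 had 5.85 RPKM in KO, against 10.8 in WT (q 0.000987 by the authors' deposited table). Kcnj3, another GIRK subunit gene, had 20.6 RPKM in KO, against 29.3 in WT (q 0.0056 by the authors' deposited table). The M-channel gene Kcnq3 stood at 11.4 RPKM in KO and 11.1 in Het, against 15.3 in WT (q 0.0154 for KO and 0.00841 for Het by the authors' deposited tables). Kcnq5 fell to 15.4 RPKM in KO, against 20.2 in WT.

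Regulators of receptor signalling divided. Of 7 receptor kinase and arrestin genes 2 fell in KO and 1 in Het. Adrbk2, a receptor kinase gene, stood at 13.7 RPKM in KO and 11.5 in Het, against 17.5 in WT, and fell in both. Grk4 fell in KO to 1.32 RPKM, against 2.65 in WT, and neither arrestin gene, Arrb1 or Arrb2, was called. Among 16 RGS genes, whose products speed the switching-off of Gi and Gq, 6 rose and 2 fell in KO, and 5 rose and 1 fell in Het. Of all tested genes 6.72% rose and 7.68% fell in KO, and 3.95% rose and 5.06% fell in Het. Rgs9, the RGS gene of striatal neurons and a member of the striatal marker list, stood at 50.3 RPKM in KO and 30.9 in Het, against 5.62 in WT. Rgs2 stood at 17.5 RPKM in KO and 20.4 in Het, against 10.7 in WT, and Rgs8 at 21.5 in KO and 18.7 in Het, against 14.4, and both rose. Rgs14 fell to 20.7 RPKM in KO and 23.0 in Het, against 30.4 in WT (q 0.000987 for KO and 0.0194 for Het by the authors' deposited tables).

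**Figure D5:**
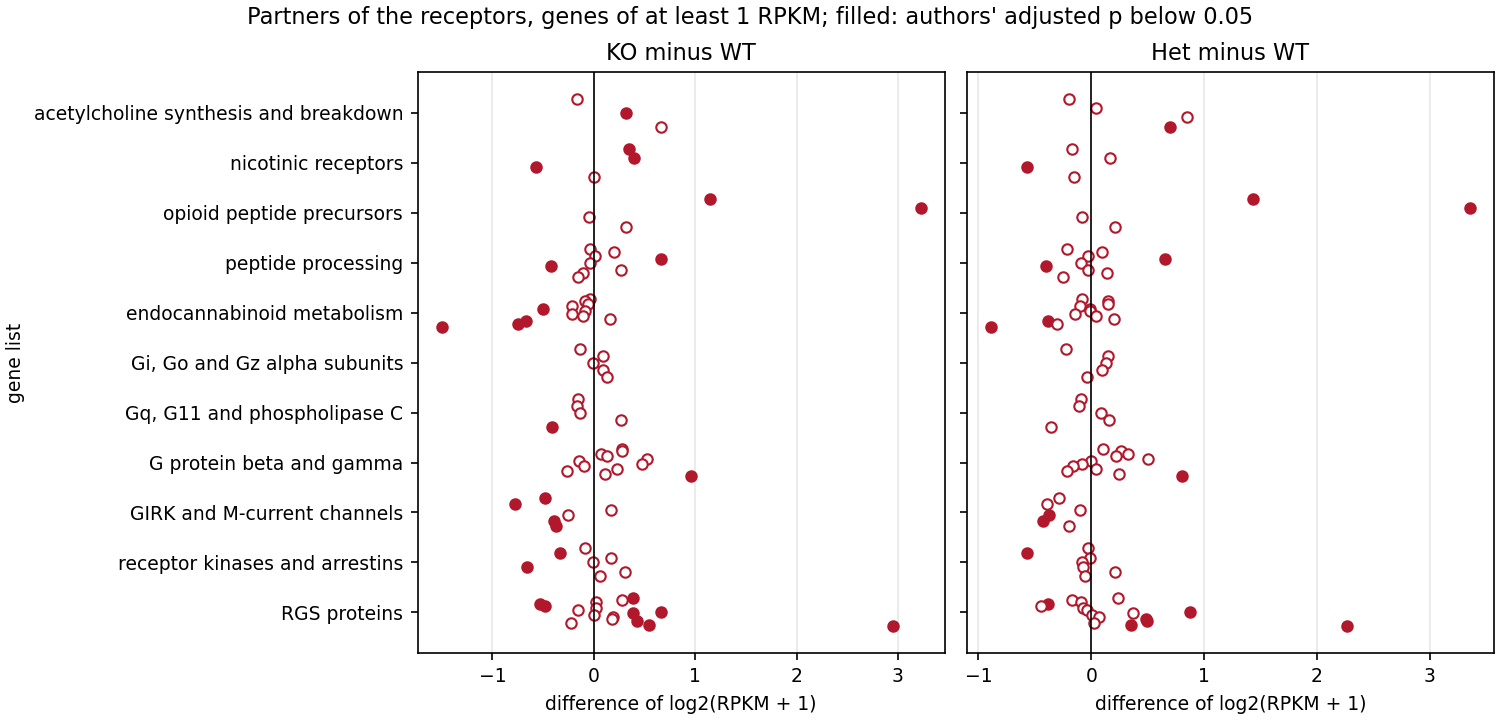
Difference of log2(RPKM + 1) in KO minus WT and Het minus WT for genes of at least 1 RPKM in 11 lists of signalling partners, 1 point per gene. Filled points have an adjusted p below 0.05 in the authors' deposited table. Filled points of endocannabinoid metabolism and of the potassium channels lie left of 0 in both panels, and Penk and Rgs9 lie farthest right.

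For the called receptors, the nearest of 13780 genes were found by distance between pairs of log2(RPKM + 1) differences (KO and Het, each against WT). The measure rests on 3 pooled values. It also shrinks the differences of low genes, so neighbours of Chrm2 and Oprk1 can differ from them in plain ratio. For Chrm1 the near genes included Adarb1 and Ppp3r1, within 0.0102 log2 units, and for Chrm2 the nearest were Slc39a12, Frzb and Cab39l, within 0.0171. For Chrm4 they included Apitd1 and Tmem44, within 0.0446, and for Oprk1 they were Mrps21, S100a3 and Dusp1, within 0.0133. Mrps21 stood at 124 RPKM in KO and 128 in Het, against 88.9 in WT, a smaller ratio than that of Oprk1, and Slc39a12 at 19.4 in KO and 20.8 in Het, against 28.4, a smaller ratio than that of Chrm2.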

How the data were processed

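Cortex RNA of 4 libraries per genotype was read as paired ends from TruSeq RNA v2 libraries, per the labels' protocols. CASAVA 1.4, TopHat2 2.0.13 and Cuffdiff 2.2.1 appear in the submitters' processing notes, with the build mm9. The step each tool did, and the annotation, are not stated in what was used here. The authors deposited 3 pairwise tables that give each genotype a single RPKM, per the file headers. Each gene also has the authors' p-value and q-value, per the file headers. Recomputing Benjamini-Hochberg values on genes whose p was under 1 gave back these q-values, and genes with a p of 1 were taken as untested. The authors' log2 fold column was left out, since some of its cells hold spreadsheet errors. No column lacked a genotype (0 unmapped).

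No test was run here: calls are the authors' q below 0.05. KO and WT values come from the KO against WT table and Het values from the Het against WT table, except in KO against Het. Log2 differences use a pseudocount of 1 RPKM. A list member was measured at 1 RPKM or more in either genotype. The members, lists and alternatives were chosen with earlier results of these data known. Named besides the 9 members were up to 4 called genes per list and comparison, by smallest q then largest difference, a few ligand and enzyme genes, and the 3 nearest genes in pattern per called member. Some genes that this rule names are not reported here. For marker lists, most genes this rule takes in are given only within counts and sums. Drd1a, Cck, Lhx8, Arrb1, Arrb2, Cnr2, Gnai1, and Slc17a7 and Napepld in Het were chosen after their values were seen. So were the beta and gamma subunit genes named besides Gng7.

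For each gene the longest 3′ UTR of GENCODE M21 (GRCm38) was searched; matching by gene name gave one to 91.3% of the genes tested in KO against WT. This build is not that of the tables, so coordinates apply to the sequences only. Alternatives are given in the closing section. Work used Python 3.11.15, numpy 2.4.6, pandas 2.3.3 and matplotlib 3.10.9, and the seed search and adjustment were tested on simulated data.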

Additional observations from a re-analysis of the deposited data

How the results depend on the processing

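Adjustment over the 3 tables together left every receptor call in place. That of Chrm2 in KO against WT stayed only narrowly, with a Benjamini-Hochberg adjusted p of 0.0496. Pseudocounts, recentring and a minimum of 1 RPKM leave the authors' q as it is and so cannot test a call. Smaller pseudocounts widened the log2 differences of low genes in KO against WT: that of Oprk1 was 1.03 with 0.1 and 1.17 with 0.01, beside 0.48 with 1, and that of Chrm2 was -0.98 and -1.07, beside -0.54. With q below 0.01 the receptors called in KO against WT numbered 1 higher (Oprk1) and 1 lower (Chrm1). With the minimum difference of 0.5 they also numbered 1 higher (Chrm4) and 1 lower (Chrm2), so each of the 4 calls is lost under 1 of these settings. Oprk1 misses that minimum only on the scale with a pseudocount of 1. The genes called over all partner lists numbered 14 higher and 17 lower in KO against WT, and 8 and 10 with q below 0.01. In Het against WT 10 were higher and 9 lower, and 8 and 5 with q below 0.01. In KO against Het 1 was higher and 5 were lower, and 1 and 2 with a minimum of 5 RPKM. No paired analysis was possible because the tables hold 1 pooled value per genotype, and for the same reason no library could be left out. Unknown depth limits most what can be said of Oprm1, Oprk1 and Chrm2, which lie near or below 1 RPKM.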

Other observations

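Receptors that share ligands with the genes above also moved. Of 4 measured nicotinic acetylcholine receptor genes, 2 rose and 1 fell in KO, and 1 fell in Het. The share called over all tested genes was 14.4% in KO and 9% in Het. Chrna7, the alpha-7 subunit gene, stood at 9.93 RPKM in KO and 9.92 in Het, against 15.2 in WT (adjusted p, written q, 0.000987 for KO and 0.00135 for Het by the authors' deposited tables). Chrna4, a subunit of the main high-affinity receptor of brain, rose in KO to 9.29 RPKM, against 7.08 in WT (q 0.0358 by the authors' deposited table). It was also higher in KO than in Het, at 9.34 against 6.22 RPKM (q 0.00879 by the authors' deposited table). Chrna5 rose in KO to 4.63 RPKM, against 3.28 in WT (q 0.0460 by the authors' deposited table).

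Of the other receptors for these ligands, 3 were measured at 1 RPKM or more, Chrm5 among them. Ackr3, an atypical chemokine receptor that scavenges opioid peptides, fell in KO to 4.41 RPKM, against 6.77 in WT (q 0.00928 by the authors' deposited table). It was lower in KO than in Het too, at 4.43 against 7.98 RPKM (q 0.00517 by the authors' deposited table). Ogfr, the opioid growth factor receptor gene, rose in KO to 50.3 RPKM, against 36.1 in WT (q 0.00254 by the authors' deposited table). The second cannabinoid receptor gene, Cnr2, was listed at 0.127 RPKM in KO and 0.163 in Het, against 0.318 in WT, and was not tested.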
